A study of Saccharomyces cerevisiae with 4 samples.

Results

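The genes described here are 10 yeast genes of sulfate assimilation, methionine and *S*-adenosylmethionine (AdoMet) synthesis and sulfite export, out of 6172 genes represented on the arrays. They were taken by name: *MET3* (YJR010W), *MET14* (YKL001C), *MET16* (YPR167C), *MET10* (YFR030W), *MET5* (YJR137C), *MET17* (YLR303W, also called *MET15*), *MET6* (YER091C), *SAM1* (YLR180W), *SAM2* (YDR502C) and *SSU1* (YPL092W). Of these, 7 had a value on all 4 arrays and could be tested, 2 had values on some arrays, and *MET17* had none.

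The treated cells were yeast (*Saccharomyces cerevisiae*) of the BY4741 background with a mutation in *mid2*, kept for 3 h with zymolyase at 0.8 units per ml in YEPD, a rich medium, at 24 °C. The untreated cells were the same mutant from the same cultures, grown on without the enzyme. Zymolyase breaks down β-glucan in the wall of yeast cells. Mid2 is one of the membrane sensors that report wall damage to the cell wall integrity pathway. Both groups thus carry the *mid2* mutation and the deletion alleles of BY4741, which affect *HIS3*, *LEU2*, *MET17* and *URA3*; how the *mid2* allele was made, and from how many clones, is not given in the sources used here. Each of 4 two-colour arrays set treated against untreated RNA. Treated RNA was labelled with Cy3 on arrays 1 and 3 and with Cy5 on arrays 2 and 4, from 2 cultures that the labels do not assign to arrays. For array 4, a comment on the untreated sample speaks of a *hog1* strain instead. The *HOG1* row read 0.26 on that array, within the range of −0.15 to 0.55 on the others, and *MID2* had no value on any array. On array 4 *HOG1* lay at the 89.7th percentile, against the 47.1st to the 90.8th on the others. A ratio cannot tell which strain was used if both samples came from 1 strain, so the comment is not settled by it.

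Yeast takes up sulfate, activates it with ATP, reduces it to sulfite and then to sulfide, and joins the sulfide to a homoserine ester to give homocysteine, which is methylated to methionine. Methionine is converted to AdoMet, the methyl donor of the cell. The genes of the pathway are switched on by the activator Met4 together with Cbf1, Met28, Met31 and Met32, and the ubiquitin ligase subunit Met30 holds Met4 in check when sulfur amino acids are plentiful, as in rich medium. Sulfite, the toxic intermediate, is pumped out of the cell by Ssu1, whose gene is activated by the zinc finger protein Fzf1. Cells without *MET17* cannot fix sulfide and need an organic sulfur source, so the treated and the untreated cells both depended on the medium for it.

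All values are the deposited log ratios, taken as log2 of treated over untreated. Neither the base nor the numerator is given in the sources used here. The sign was read from 10 cell wall genes that zymolyase is known to induce, 9 of which lay above 0 on all 4 arrays; their medians were 1.65, 1.93, 2.35 and 1.93 on arrays 1 to 4. Positive therefore means likely higher in treated cells, and those genes are no independent evidence of it. The arrays' own medians over the 3299 genes with 4 values were −0.02, −0.37, −0.04 and −0.07, and array 4 had the narrowest spread (median absolute deviation 0.157, against 0.308 to 0.375 on the others). Between 20.0% and 42.2% of the rows of an array were blank, most on array 2. Errors of means are the SD over arrays, which here mixes 2 cultures and 2 dye orientations.

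After zymolyase the sulfite pump gene *SSU1* fell, while none of the 6 other testable genes of the group passed the test in either direction. In the limma fit over all genes, 137 of 3299 genes (4.15%) passed at an adjusted p under 0.05 and 46 (1.39%) fell. Among the 7 testable genes of the group, 1 fell and none rose (limma; 1 of the 7 had an unadjusted p under 0.05). The median of the 7 means was −0.16, against −0.14 for all genes tested. That difference was −0.01, but −0.18 without array 1 and −0.15 with genes on at least 3 arrays, where *MET5* enters.

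*SSU1* read −1.30, −1.37, −1.69 and −0.64 on arrays 1 to 4. It was below 0 on every array and in both dye orientations, and it was the lowest of the group on each array. Its mean was −1.25 ± 0.44 (SD, 4 arrays of 2 cultures), with a 95% interval from the fit of −1.79 to −0.71 (limma, adjusted p = 0.00034). In base 2 this is a ratio of 0.42 in treated over untreated cells, with an interval of 0.289 to 0.612, or 2.38-fold lower. Nearly every gene shares 1 standard error in this fit (0.276), because only 1 residual degree of freedom is left per gene and the spread is borrowed across genes. The adjusted p was 0.0571 without array 1, at a fitted value of −1.18, and 0.0674 without array 4, at −1.46. Such fitted values weight the cultures equally, so they are not plain means of the 3 arrays left. The adjusted p was 0.0624, at −1.13, when arrays were centred and scaled to 1 spread. The call did not hold in those fits. The direction held, but only the centred and scaled fit could have changed it.

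**Figure D1:**
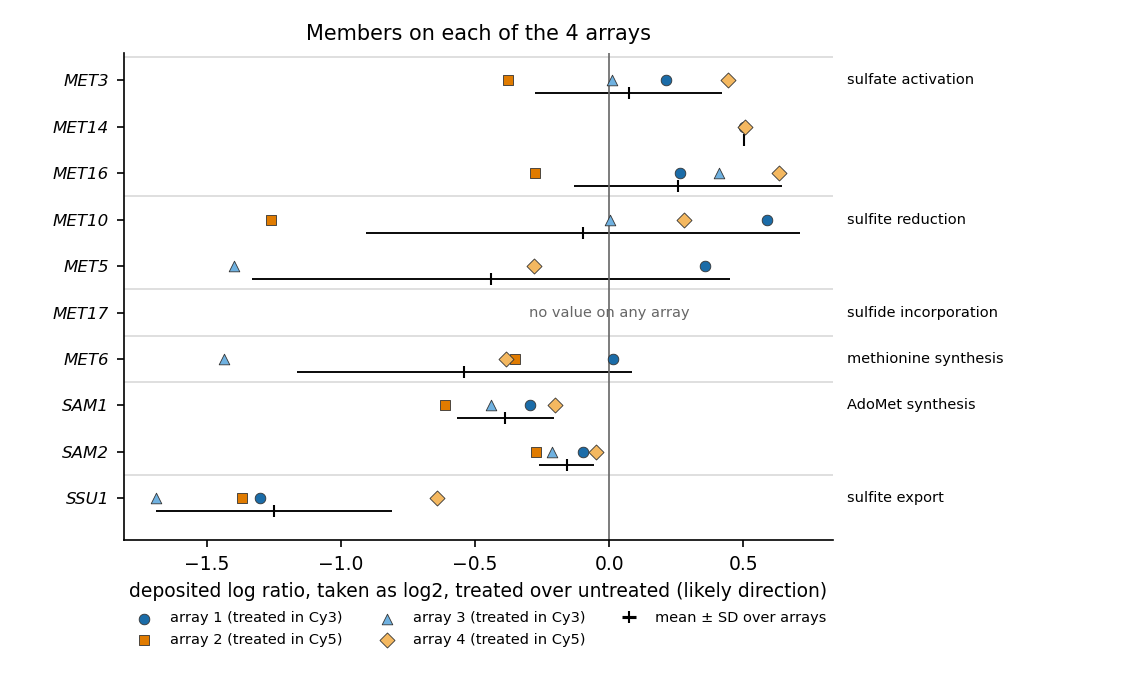
Log ratio (x axis, taken as log2, treated over untreated) of each of the 10 genes on each array (points, coloured by array and dye), with the mean ± SD over arrays drawn under the points. *SSU1* lies between −1.69 and −0.64, and the 4 arrays of *SAM1* and *SAM2* lie close together, while the arrays of *MET10*, *MET5* and *MET6* spread widely.

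Ranks, which do not depend on an array's scale, placed *SSU1* near the bottom on each array. It was the 40th lowest of 4692 genes with a value on array 1, the 156th of 3576 on array 2, the 61st of 4768 on array 3 and the 57th of 4944 on array 4. Although its value on array 4 was closer to 0, only 1.13% of the genes there lay below it, within the range of 0.831% to 4.33% on the other arrays. Over the mean of 4 arrays *SSU1* was the 15th lowest of 3299 genes. It was among 6 genes that lay in the lowest 5% of the genes tested on all 4 arrays, and among 11 in the lowest 10%.

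Against the median of the 6 other testable genes, *SSU1* was lower by 1.41, 1.00, 1.58 and 0.75 on arrays 1 to 4, a mean difference of −1.19 ± 0.38 (SD, 4 arrays). The gap was widest on array 3 and narrowest on array 4. No test is given for it, since *SSU1* was singled out with its value known. The next lowest gene of the group differed between arrays. It was *SAM1* on array 1 at −0.29, *MET10* on array 2 at −1.26, and *MET6* on arrays 3 and 4 at −1.44 and −0.39.

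**Figure D2:**
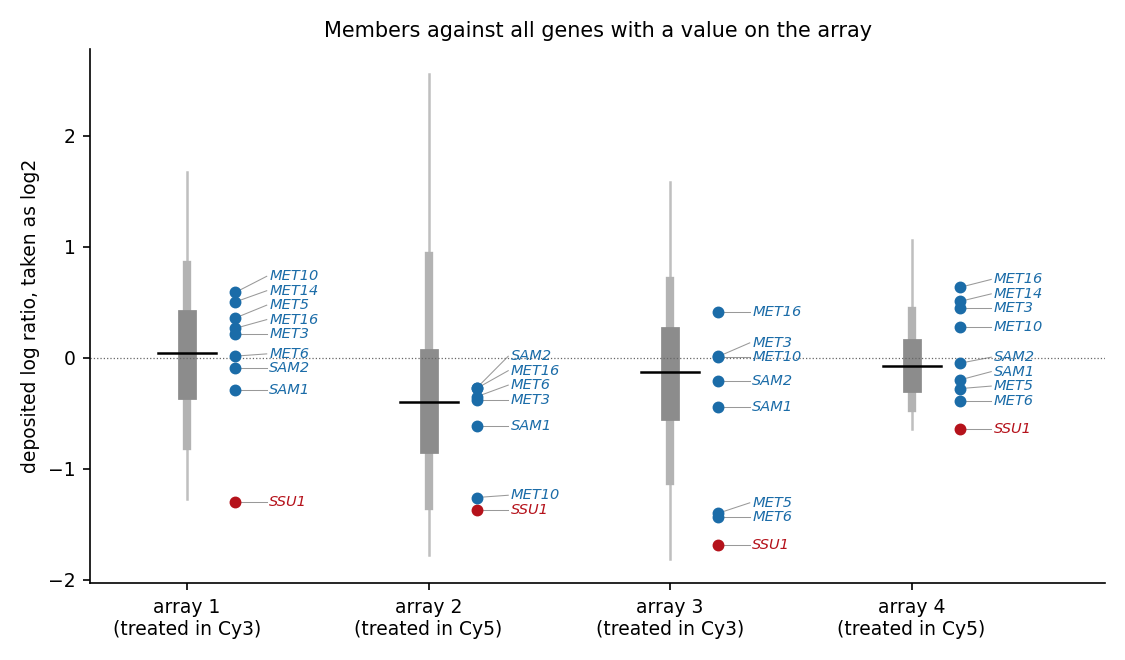
Log ratio (y axis, taken as log2) of the 10 genes (points, *SSU1* in red) beside all genes with a value on the same array, drawn as a bar from the 25th to the 75th percentile, a thinner bar from the 5th to the 95th, a line from the 1st to the 99th and a black tick at the median. *SSU1* is the lowest point on each of the 4 arrays, and *MET3*, *MET14* and *MET16* are the highest points on array 4.

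The genes of sulfate activation and its reduction to sulfite did not pass, and the 2 with 4 values were above 0 on 3 of the 4 arrays. *MET3* encodes ATP sulfurylase, which starts the pathway, and read 0.21, −0.38, 0.01 and 0.44 on arrays 1 to 4. Its mean of 0.07 ± 0.35 lay within an interval of −0.47 to 0.61 (limma, adjusted p = 0.957). *MET16* encodes the reductase that turns activated sulfate into sulfite, and read 0.26, −0.28, 0.41 and 0.63, a mean of 0.26 ± 0.39 (interval −0.28 to 0.80; limma, adjusted p = 0.849). Both were below 0 on array 2 alone, the array whose own median was −0.37. Set against each array's median, *MET16* was above it on all 4 arrays, by 0.29, 0.09, 0.45 and 0.70. In the fit of centred arrays it did not pass either (0.38; limma, adjusted p = 0.449).

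*MET14* encodes the kinase of the second activation step and had values on arrays 1 and 4 only, 0.50 and 0.51. These 2 values agreed closely and lay at the 85.2nd and 96.3rd percentiles of their arrays. In a fit of genes with at least 2 values its adjusted p was 0.574 (limma, mean 0.50, interval −0.15 to 1.15). On array 4 *MET3* and *MET16* lay at the 95.6th and 97.4th percentiles, so that the highest values of the group on that array were those of *MET16*, *MET14* and *MET3*. On array 1, by contrast, *MET3* and *MET16* were at the 64.5th and 68.7th percentiles.

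The subunit genes of sulfite reductase, which makes sulfide from sulfite, gave values that differed between arrays by more than any shared change. *MET10*, for the α subunit, read 0.59, −1.26, 0.00 and 0.28 on arrays 1 to 4, a mean of −0.10 ± 0.81 (interval −0.64 to 0.44; limma, adjusted p = 0.943). Only array 2 was below 0, and without it the fitted value was 0.29. *MET5*, for the β subunit, read 0.36, −1.40 and −0.28 on arrays 1, 3 and 4 and was blank on array 2. Its low value was thus on another array than that of *MET10*, and neither gene moved in 1 direction. Where genes with at least 3 values were fitted with a dye term, *MET5* did not pass (−0.40, interval −1.05 to 0.25; limma, adjusted p = 0.666).

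*MET17* encodes the enzyme that fixes sulfide into homocysteine, and its row was blank on all 4 arrays. In BY4741 this gene is deleted, so no transcript of it should be present in either group. Blank rows were common, however, since 879 of 6172 genes had no value on any array, *MID2* and *URA3* among them. The rows of the other deletion alleles were filled. *LEU2* read −0.06 and 0.12 on the arrays with treated RNA in Cy5, and −0.84 and −1.26 on those with it in Cy3. *HIS3*, part of which remains in BY4741, read −0.50 and −0.18 with treated RNA in Cy5 and −1.68 and −1.66 with it in Cy3. Both rows were thus lower where treated RNA was in Cy3, and the half-difference (Cy5-treated minus Cy3-treated arrays) was 0.54 for *LEU2* and 0.67 for *HIS3*. *HIS3* passed the test (−1.003; limma, adjusted p = 0.00953) and *LEU2* did not (−0.51; adjusted p = 0.518).

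The half-difference of *SSU1* between orientations was 0.25, with a mean of −1.005 on the arrays with treated RNA in Cy5 and −1.50 on those with it in Cy3. *SSU1* was thus low in both orientations, and lower with treated RNA in Cy3. The Cy5-treated means of *HIS3* and *LEU2* were −0.34 and 0.03. The part of dye or spot brightness in any of these rows was not tested. In 15.6% of all genes tested, both arrays that carried treated RNA in Cy3 lay below both that carried it in Cy5. The opposite order was held by 29.4%. None of the 7 testable genes of the group showed either order. These shares and this result are without centring. Set against each array's median, both Cy3-treated arrays of *SSU1* (−1.28 and −1.64) lay below both Cy5-treated ones (−0.998 and −0.571). *SAM1* and *SAM2* then showed that order too, and the other testable genes of the group did not. The share of all genes with that order after centring is not given here.

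**Figure D3:**
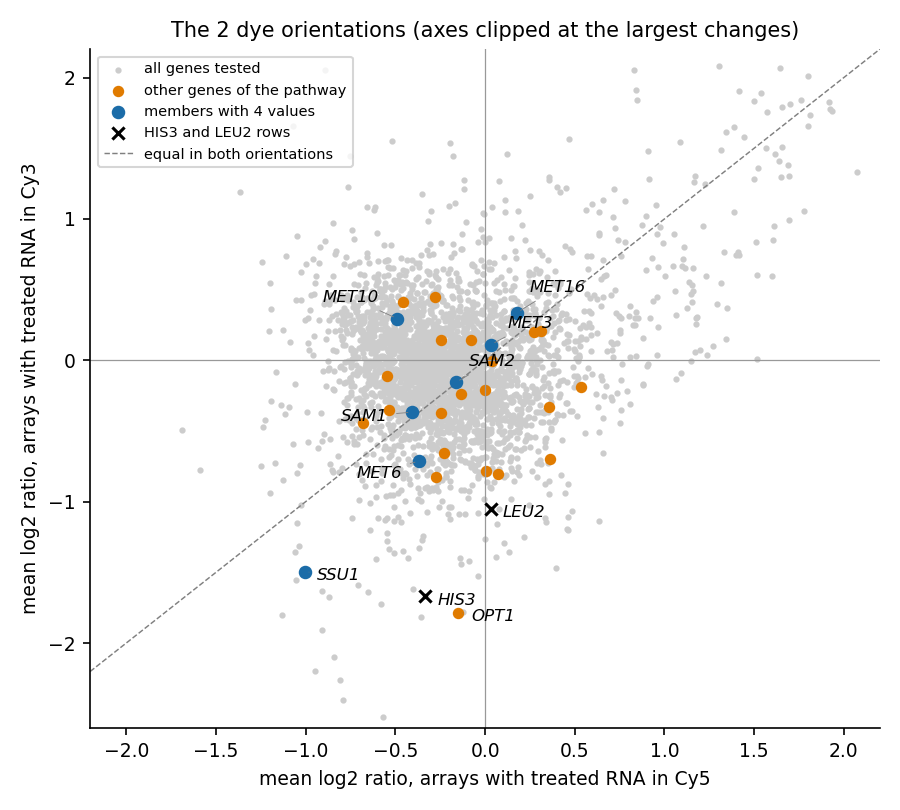
Mean log2 ratio of the arrays with treated RNA in Cy5 (x axis) against the mean of those with treated RNA in Cy3 (y axis) for the 3299 genes tested, of which 22 lie outside the axes; the dashed line marks equal values. *SSU1* lies low on both axes (−1.005 and −1.50). *OPT1* and the rows of *HIS3* and *LEU2* lie low on the y axis and less far from 0 on the x axis (−0.15, −0.34 and 0.03).

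*MET6*, which encodes the enzyme that methylates homocysteine to methionine, read 0.01, −0.35, −1.44 and −0.39 on arrays 1 to 4. The mean of −0.54 ± 0.62 was pulled down by array 3, and the fitted value without that array was −0.27. It did not pass (interval −1.08 to 0.00; limma, adjusted p = 0.465). Array 3 was likewise the low array of *MET5* and of several genes of the wider pathway named below.

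The AdoMet synthetase genes *SAM1* and *SAM2* varied least between arrays among the genes with 4 values. *SAM1* read −0.29, −0.61, −0.44 and −0.20 on arrays 1 to 4, a mean of −0.39 ± 0.18 (interval −0.93 to 0.15; limma, adjusted p = 0.760). *SAM2* read −0.10, −0.27, −0.21 and −0.05, a mean of −0.16 ± 0.10 (interval −0.70 to 0.38; limma, adjusted p = 0.902). Both were below 0 on all 4 arrays, as were 562 of the 3299 genes tested, or 17.0%. Set against each array's median, *SAM1* was still below on all 4 arrays. *SAM2* was not, at −0.07, 0.10, −0.17 and 0.02 on arrays 1 to 4. The values of *SAM1* were below those of *SAM2* on each array, by a mean of −0.23 ± 0.08 (SAM1 minus SAM2). The 2 genes are close paralogs whose transcripts the spots may not tell apart, so they may not be separate measurements.

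Of 36 other genes of sulfur metabolism and its control, 21 had 4 values, 10 had fewer and 5 had none. In the same fit 1 of the 21 fell and none rose, against the background of 4.15%, and 3 had an unadjusted p under 0.05. Their median was −0.17, against −0.14 for all genes tested. The gene that passed was *OPT1*, for a transporter of glutathione and oligopeptides, which read −0.42, −0.13, −3.15 and −0.17 on arrays 1 to 4 (mean −0.97 ± 1.46; limma, adjusted p = 0.0225). Its call rested on array 3, and no gene of the list passed when any 1 array was left out.

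Among transporters of sulfur compounds, *MUP3*, a low-affinity methionine permease gene, read −1.18, −1.85 and −0.24 on arrays 1, 3 and 4 and was blank on array 2. It was deeper where treated RNA was in Cy3, and it did not pass with genes on at least 3 arrays (−0.87; limma, adjusted p = 0.0847). The high-affinity methionine permease gene *MUP1* was above 0 on all 4 arrays, at 0.10 to 0.41, with a mean of 0.24 ± 0.15 (limma, adjusted p = 0.867). *SAM3*, for the AdoMet permease, and *YCT1*, for a cysteine transporter, averaged −0.39 ± 0.47 and −0.44 ± 0.37. Sulfate permease genes gave little, as *SUL2* averaged 0.01 ± 0.43 and *SUL1* had values on arrays 3 and 4 only, −0.73 and −0.01.

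**Figure D4:**
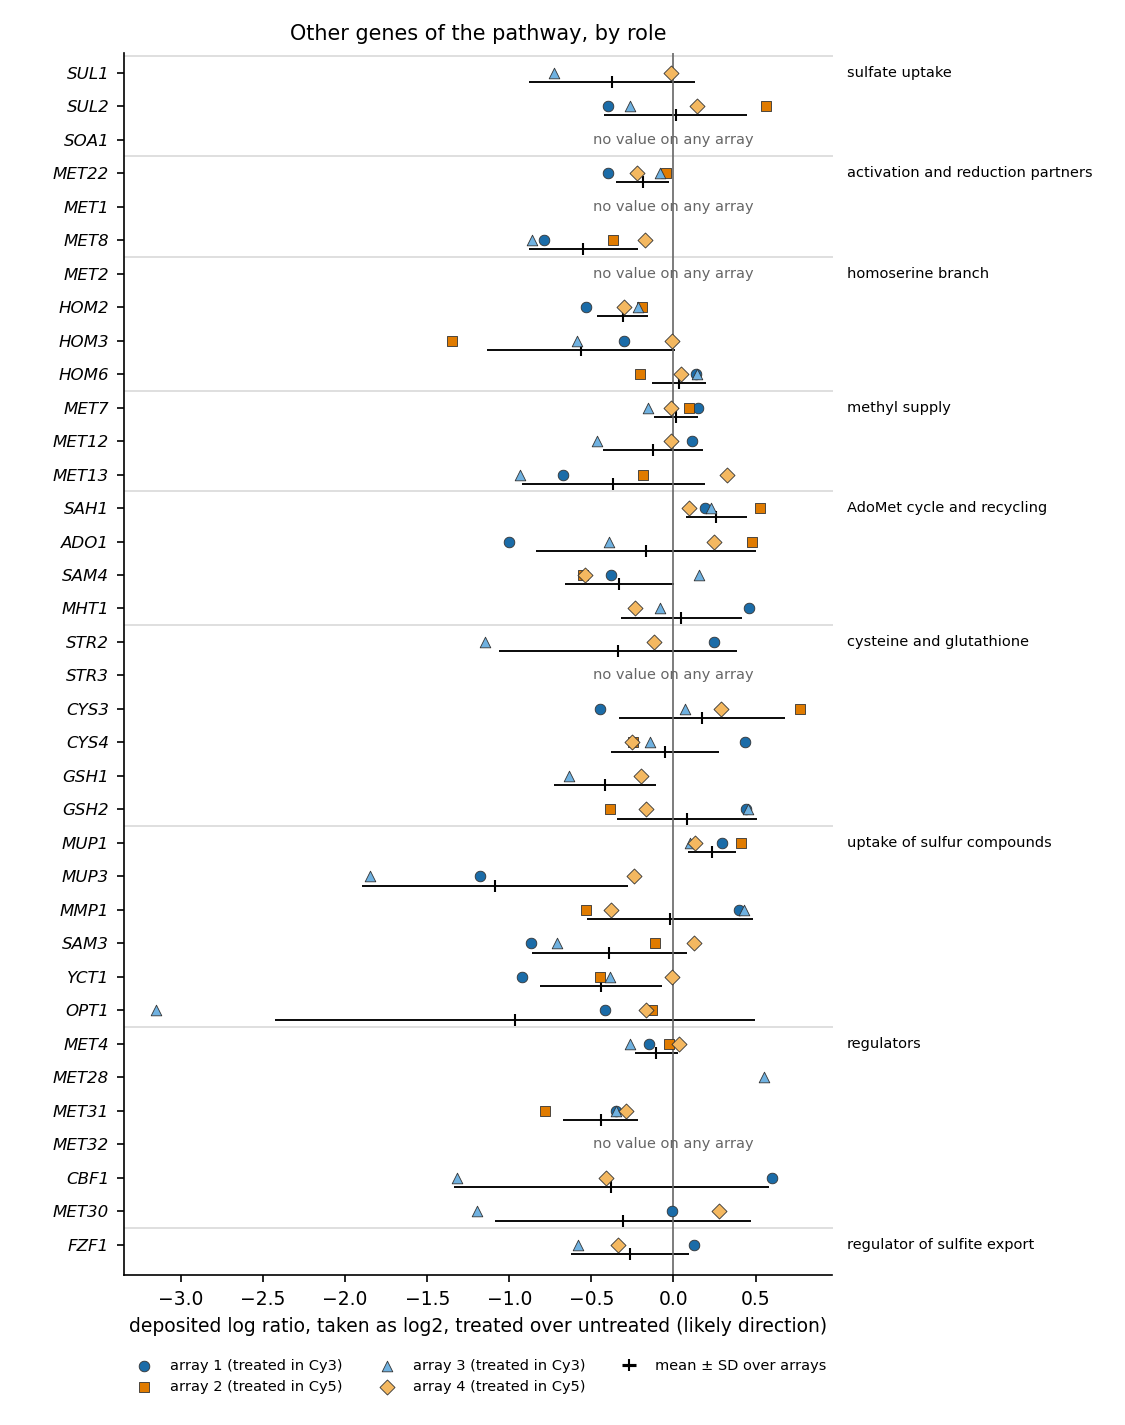
Log ratio (x axis, taken as log2, treated over untreated) of 36 other genes of sulfur metabolism, grouped by role, on each array (points, coloured by array and dye), with the mean ± SD over arrays drawn under the points. *OPT1* has 1 array at −3.15, and 5 genes have no value.

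*MET8*, which acts in the synthesis of siroheme, the cofactor of sulfite reductase, was below 0 on all 4 arrays with a mean of −0.55 ± 0.33. *HOM3*, for aspartate kinase at the head of the homoserine branch, was also below 0 on all 4 arrays (−0.56 ± 0.57), with −1.35 on array 2. Of all genes tested, 17.0% were below 0 on all 4 arrays, and each array's own median was below 0. Set against those medians, *MET8* was at 0.001 on array 2 and *HOM3* at 0.06 on array 4. *MET8* and *HOM3* had an unadjusted p under 0.05 but did not pass (limma, adjusted p = 0.450 and 0.417). *MET22*, whose product removes a by-product of sulfate reduction, averaged −0.19 ± 0.16 and *HOM2* −0.31 ± 0.16. *MET13*, which supplies the methyl group for methionine, averaged −0.37 ± 0.56, and *MET12* −0.12 ± 0.30 on 3 arrays.

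In the AdoMet cycle, *SAH1*, for the hydrolase of *S*-adenosylhomocysteine, was above 0 on all 4 arrays with a mean of 0.26 ± 0.19, the highest of the 21, and did not pass (limma, adjusted p = 0.849). *SAM4*, which recycles AdoMet to methionine, averaged −0.33 ± 0.33. For cysteine and glutathione synthesis, *STR2* had values on 3 arrays (0.25, −1.15 and −0.12 on arrays 1, 3 and 4) and *GSH1* on 2 (−0.63 and −0.20 on arrays 3 and 4).

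The regulators were poorly measured. *MET4*, the activator itself, averaged −0.10 ± 0.13 and *MET31*, which encodes a DNA-binding partner of Met4, −0.44 ± 0.23, and neither passed (limma, adjusted p = 0.939 and 0.673). *CBF1* read 0.60, −1.32 and −0.41 and *MET30* read −0.01, −1.19 and 0.28 on arrays 1, 3 and 4. Both were lowest on array 3. *MET28* had 1 value, 0.55 on array 3, and *MET32* none. *FZF1*, for the activator of *SSU1*, read 0.12, −0.58 and −0.34 on arrays 1, 3 and 4 and was blank on array 2. It was not below 0 on every array, as *SSU1* was, and it did not pass with genes on at least 3 arrays (−0.28, interval −0.85 to 0.28; limma, adjusted p = 0.742).

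Without centring, 8 of the wider list's 21 tested genes (38.1%) had both Cy3-treated arrays below both Cy5-treated ones, against 15.6% of all genes tested. The opposite order was held by 5 (23.8%), against 29.4% of all genes tested. *MET8*, *MET13*, *SAM3* and *OPT1* were among the 8, with half-differences (Cy5-treated minus Cy3-treated) of 0.28, 0.44, 0.40 and 0.82. The rows of *LEU2* and *HIS3* showed that same order of arrays, and the part of dye or spot brightness in these values was not tested.

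The genes whose values lay nearest to those of *SSU1*, by the root mean square difference over the 4 centred arrays, were *AGA2* (0.105), *REA1* (0.144) and *PHM6* (0.296). *AGA2* encodes the adhesion subunit of a-agglutinin, *REA1* a large ATPase of ribosome assembly, and *PHM6* belongs to the phosphate regulon. *REA1* read −1.03, −1.38, −1.68 and −0.74 on arrays 1 to 4. Each of the 3 was below 0 on all 4 arrays, and they averaged −1.30 ± 0.41, −1.21 ± 0.41 and −1.17 ± 0.29. To the median of the 7 testable genes the nearest were *PPS1*, *NFT1*, *ALE1*, *RHO3* and *WHI4*, at differences of 0.042 to 0.066, with means between −0.16 and −0.12, close to the median of all genes.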

How the data were processed

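RNA of treated and untreated *mid2* cells was compared on 4 two-colour arrays. The deposited values are 1 log ratio per row and array, taken here as log2; the authors' normalization, filter for blanks, log base and numerator are not stated in the labels or in the table. Precision is set by having 4 arrays, whose replicates may be technical, so p-values may not cover the spread between independent cultures. They rest on 2 culture means under an assumed pairing, with a spread largely borrowed across genes. A gene's own spread over the 4 arrays thus counts for little in them. Of 6209 rows, 2 control rows were left out; 5654 of 6207 rows matched a RefSeq (R64) locus tag, 57 a synonym of 1 gene, and 496 kept their name. Rows of 1 gene were averaged, which gave 6172 genes, of which 3299 (53.5%) had 4 values. Coordinates and sequences were not used here.

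Which arrays came from 1 culture is not labelled. Under each of the 2 possible pairings of a Cy3-treated with a Cy5-treated array, the 2 arrays were averaged and the 2 culture means tested against 0 with limma 3.58.1 (lmFit, eBayes) in R 4.3.3. A gene passed if its Benjamini-Hochberg adjusted p over all genes tested was under 0.05 under both pairings; the larger p, standard error and interval are given. The prior degrees of freedom were unlimited with arrays 1 and 2 paired and 12.7 with arrays 1 and 4 paired. The fit was tested on simulated data. Alternatives were each pairing alone, a dye term, no dye term, centring, scaling, fewer values per gene, a robust prior, an adjusted p under 0.1 and leaving out each array.

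The genes, lists, tests and alternatives were chosen with earlier results of these data known. Named are the 10 genes, every gene of the wider list that passed and the 2 largest means of each of its roles, the BY4741 deletion alleles and *MID2*, and the genes nearest in profile. *MET4*, *MUP1*, *SAM3*, *YCT1*, *CBF1*, *MET30*, *MET32*, *HOG1* and the genes named only in the closing section fall outside that rule and were chosen after their values were seen.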

Additional observations from a re-analysis of the deposited data

Results flagged for a closer look

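Dixon's test for a sample far from the others, run on 37 named genes with 4 values, found such an array in 4 genes. By chance it finds 1 in about 5% of sets of unrelated samples, which is 1.85 of 37. That rate may not hold for dye swaps of 2 cultures. Some of the 37, *OPT1* and *SER3* among them, were also named because of their values. The 4 found can therefore not be judged against 1.85. None of the 7 testable genes of the group was among the 4. *OPT1* read −3.15 on array 3, with −0.42 to −0.13 on the others. *MET31* read −0.78 on array 2, while its other arrays lay between −0.35 and −0.29. *YHB1*, a flavohemoglobin gene, read −2.47 on array 3 and between −1.22 and −1.05 elsewhere. *SER3*, for an enzyme of serine synthesis, read −5.21 on array 3, and its other values were −1.02, −1.48 and −1.14. No cause of these values was tested.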

How the results depend on the processing

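*SSU1* stayed below 0 in all 14 alternatives and passed in 11, and its values where it did not pass are given above. With all 4 arrays below 0, its sign could have changed only after centring. A gene that passed the main fit passes by construction in the 2 single pairings and at the looser threshold. The fits with a dye term, no dye term or fewer values per gene treat the 4 arrays as separate samples, though they come from 2 cultures. The 11 are thus not 11 separate checks. No other gene of the group passed in any alternative. Over all genes 137 passed, of which 91 rose and 46 fell. Arrays 1 with 4 as the only pairing gave 306 (156 and 150), 4 arrays with no dye term 65 (53 and 12), genes on at least 2 arrays with no dye term 70 (58 and 12), and centring with scaling 2 (2 and 0). Leaving out single arrays gave 5 to 101, with 5 without array 4, 47 without array 1 and 73 without array 2. Centring alone gave 115, 28 of them fallen, and put the median of all genes at −0.02, against −0.14 uncentred. Fallen genes numbered 74 with a robust prior, 69 with genes on at least 3 arrays and 72 at an adjusted p under 0.1. The count for the group was 1, 0 after centring with scaling (limma; 1 had an unadjusted p under 0.05), and 0 to 1 without single arrays. The count for the wider list was 1 in the 2 single pairings and at the looser threshold, and 0 in the other 11 alternatives (limma; 0 to 6 had an unadjusted p under 0.05). The median of the group minus that of all genes was −0.01. It was −0.15 with genes on at least 3 arrays, where *MET5* enters, and −0.182 to −0.0268 without single arrays. Uncalled means near 0 changed sign. *MET10* was 0.0293 after centring, 0.137 after centring with scaling and −0.367 to 0.291 without single arrays (0.291 without array 2). *MET3* was −0.0108 to 0.195 without single arrays (−0.0108 without array 4). The 4 arrays, their unstated cultures and the unknown spot brightness limit every value.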

Other observations

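Genes reported to depend on Fzf1 under nitrosative stress include *SSU1*, *YHB1*, *DDR48* and *YNR064C*, and were looked at after the value of *SSU1* was known. *YHB1*, which encodes a flavohemoglobin that removes nitric oxide, read −1.13, −1.22, −2.47 and −1.05 on arrays 1 to 4 and fell (−1.47 ± 0.67; limma, adjusted p = 0.000161). *DDR48*, a stress gene with several other regulators, read 2.15, 0.89, 1.95 and 0.77 and rose (1.44 ± 0.71; limma, adjusted p = 4.15e-05). *YNR064C* had no value on any array. *SSU1* and *YHB1* were thus below 0 and *DDR48* above 0 on all 4 arrays. Any part of Fzf1 in these values was not tested.

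The chromosomal neighbours of *SSU1* in the RefSeq gene order are *NOG1*, for a GTPase of ribosome assembly, and *GLR1*, for glutathione reductase. *NOG1* read 0.39, 0.37, −0.20 and −0.09 on arrays 1 to 4 and *GLR1* read 0.05, −0.38, 0.00 and −0.21. Neither passed (limma, adjusted p = 0.921 and 0.916), and neither was below 0 on every array.

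Beside *SSU1*, only *SER3* and *REA1* lay on every array within the lowest 3.18% of the genes tested, the bound set by the highest array of *SSU1* itself. *SER3* averaged −2.21 ± 2.01, with 1 array far below its others, whereas *REA1* and *SSU1* had an SD of 0.41 and 0.44.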
